A study of Mus musculus with 4 samples.

Results

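The nuclear genes for the subunits of the mitochondrial respiratory chain were described in the livers of WT and *Usp21* KO mice. Members were the genes of the deposited TPM table with symbols that begin with Ndufa, Ndufb, Ndufc, Ndufs, Ndufv or Ndufab and a number, Sdha to Sdhd, Uqcr, Cox4 to Cox8, or Atp5, without pseudogenes named -ps, and averaging 1 TPM or more in the 4 libraries. TPM, the unit salmon gives, is an abundance corrected for transcript length, so that levels of different genes can be compared. This rule found 82 genes among the 9581 genes that reached 1 TPM and the 35739 genes of the table. There were 40 genes of complex I, 4 of complex II, 8 of complex III, 12 of complex IV and 18 of complex V. In the GENCODE M21 annotation, 80 of them are protein coding and 2 (*Ndufb4c* and *Ndufs6b*) are processed pseudogenes.

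RNA-seq was carried out on livers, with 1 library per mouse and 2 libraries per genotype, named WT replicates 2 and 3 and KO replicates 1 and 3. *Usp21* encodes a deubiquitinase, an enzyme that removes ubiquitin from proteins. In the KO mice, exons 3 and 4 had been excised with Cre recombinase in all tissues, starting from 129/Sv ES cells, so that the KO allele came from a mixed B6 and 129/Sv background while the WT alleles were carried by B6 mice. Both genotypes were littermates of 10 to 11 weeks that received a normal diet under a 12 h light and dark cycle. The targeted gene read 4.07 and 6.29 TPM in WT against 1.64 and 2.93 TPM in KO, and reads outside the excised exons still count towards these values. Of 6 hepatocyte markers, 6 were above 1 TPM, with a summed level of 69438 and 54919 TPM in WT against 57347 and 47683 TPM in KO. The KO libraries were both above WT for 1 of them (*Tat*) and both below for 1 (*Alb*). The same held for 34.4% and 10.9% of the 9581 genes that reached 1 TPM. Of 6 skeletal and heart muscle markers, 6 were at 0 in all libraries.

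The respiratory chain lies in the inner mitochondrial membrane and is made of large complexes. Complex I takes electrons from NADH and complex II takes them from succinate, and both pass them to ubiquinone. Complex III hands them to cytochrome c, complex IV reduces oxygen with them, and complex V, the ATP synthase, uses the resulting proton gradient to make ATP. Hepatocytes are rich in mitochondria, and most of the subunits are encoded in the nucleus and imported, while a small number are encoded in mitochondrial DNA. Several subunits of complexes IV and V exist as isoforms from separate genes, some of which are typical of muscle or testis.

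The subunit genes were among the most abundant messages of these livers. Of the 82 members, 74 (90.2%) had a mean of at least 100 TPM, compared with 8.58% of all tested genes. Together they held 2.14% and 2.09% of all TPM in the WT libraries and 2.52% and 2.04% in the KO libraries. The median member had 155 TPM in complex I, 162 TPM in complex II, 324 TPM in complex III, 370 TPM in complex IV and 336 TPM in complex V. Levels within a complex were uneven, since complex V ran from *Atp5mc2* at 5.73 TPM to *Atp5mc3* at 991 TPM, both of which encode subunit c of the ATP synthase rotor.

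**Figure D1:**
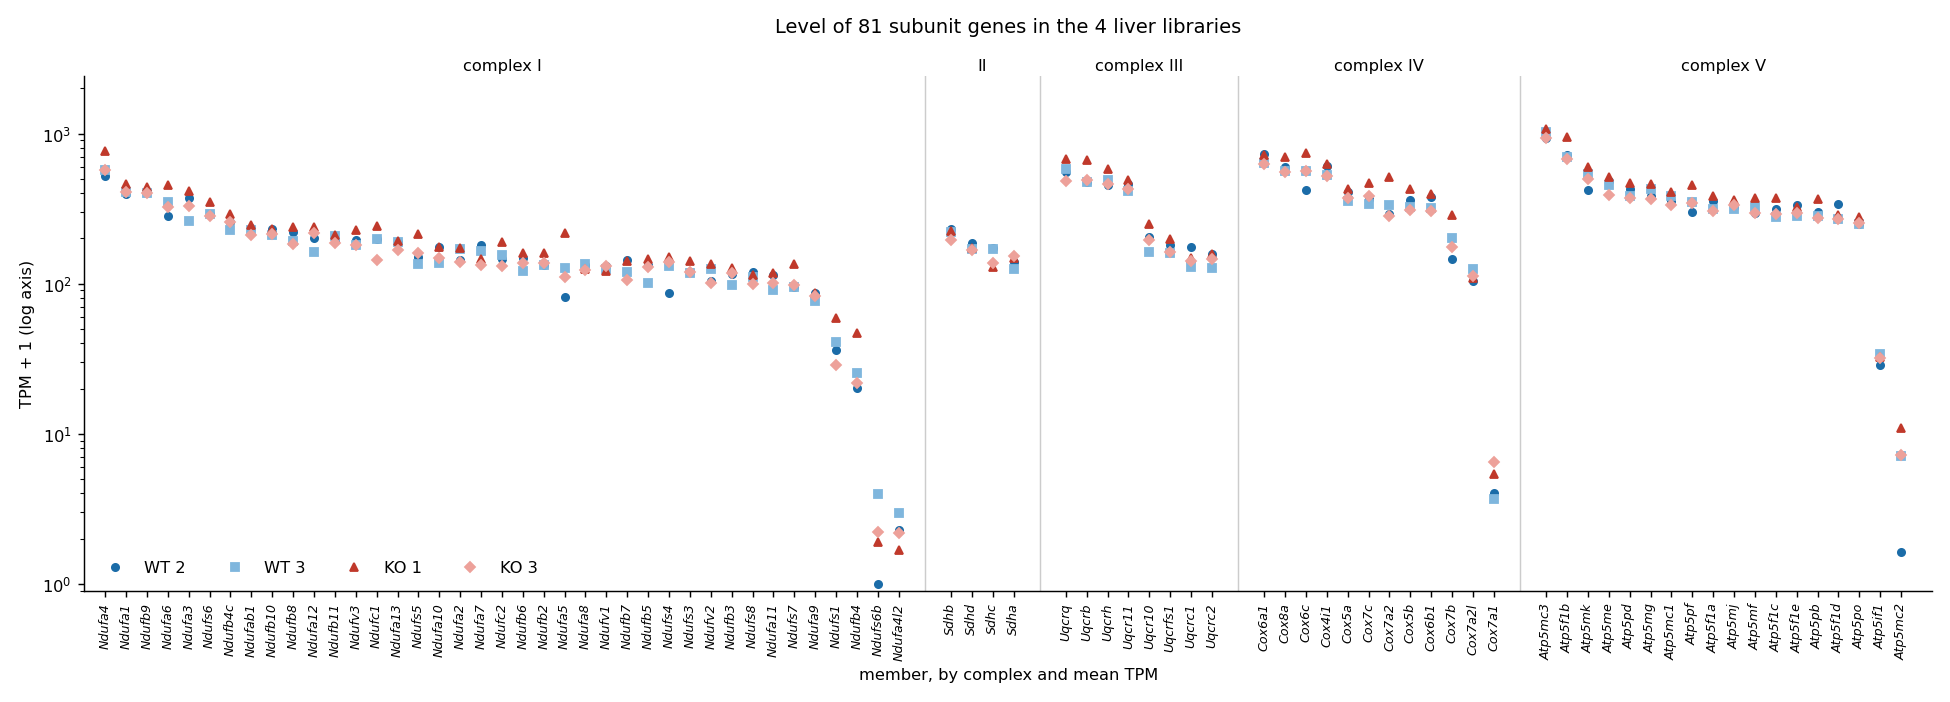
Level of 81 subunit genes as TPM + 1 on a log axis, with 1 point per library (WT replicates 2 and 3, KO replicates 1 and 3), grouped by complex and ordered by mean TPM. Of all 82 genes, 74 had a mean of at least 100 TPM, and *Ndufs6b*, *Ndufa4l2*, *Cox7a1* and *Atp5mc2* lay far below the rest.

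No member passed the test of KO against WT. The test was limma on log2(TPM + 1) over all 9581 tested genes, two-sided, with Benjamini-Hochberg adjustment at 0.05, and it called 0 members, while 8 of all tested genes (0.0835%) were called. An unadjusted p under 0.05 was found for 1 member (*Cox7a1*), compared with 10.5% of all tested genes. On reads recovered from a second deposited table, edgeR called 1 member (*Sdhc*, 0.233% of the 5146 genes above 0 in that table) and DESeq2 and limma on the scaled values each called 0 (0.0194% of the same genes). The lowest adjusted p of any member was 0.472 and the median standard error (SE) of a member was 0.19 on the log2 scale, compared with 0.26 over all tested genes. In simulated libraries of this size the limma test did not call 2-fold changes. With 2 libraries per genotype, an exact permutation test of a single gene cannot give a p below 0.333.

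The intervals of the differences were taken on the TPM as deposited. They cover the spread between libraries but not the choice of scaling. For instance, *Sdhc* moved from -0.36 to -0.50 with upper quartile scaling and to -0.57 with each library centred on its median gene. For 73 of the 82 members, the 95% interval of the log2 fold change stayed within a 2-fold change in either direction, and for 43 it stayed within a 1.5-fold change. The 9 members with a wider interval were *Ndufs4*, *Ndufb4*, *Ndufa5*, *Cox7b*, *Cox7a2*, *Ndufa4l2*, *Atp5mc2*, *Cox7a1* and *Ndufs6b*. A change of at least 2-fold on the log2(TPM + 1) scale was fitted for 1 member (*Atp5mc2*), compared with 3.68% of all tested genes.

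The fitted values were higher in KO for 61 members and lower for 21, and 66.7% of all tested genes were higher. The median log2 fold change was 0.09 over the members and 0.15 over all tested genes, and by complex it was 0.10 in complex I, -0.09 in complex II, 0.09 in complex III, 0.10 in complex IV and 0.07 in complex V. This direction depended on how the libraries were scaled, as 28 members were higher and 54 lower with upper quartile scaling (median -0.04), and 19 were higher and 63 lower when each library was centred on its median gene (median -0.12). The same scalings moved the median of all tested genes from 0.15 to 0.04 and to -0.05. The members lay 0.06 to 0.08 below all tested genes under each of the 3 scalings. Centring shifts all genes of a library equally, and upper quartile scaling multiplies them by a single factor. The agreement of this gap between the scalings was therefore nearly fixed in advance. This gap was not steady under other settings, at -0.0079 with a pseudocount of 5, -0.017 after removing the trend with transcript length, -0.010 without KO replicate 3 and -0.13 without KO replicate 1. The KO libraries both exceeded the WT libraries for 16 members (34.4% of all tested genes) and both lay below them for 4 members (10.9% of all tested genes) as deposited, but these counts turned to 4 (24.5%) and 17 (18.6%) with upper quartile scaling and to 1 (17.5%) and 32 (26.1%) with median centring.

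The KO libraries lay apart from each other, in a way that depended in part on the scaling. In the TPM as deposited, KO replicate 1 was the highest library for 62 of the 82 members (75.6%), compared with 45.9% of all tested genes, but it was the highest for 30 members (32.2% of all tested genes) with upper quartile scaling and for 18 (24.4%) with each library centred on its median gene, where WT replicate 2 was the highest for 35 and 47. KO replicate 3 was rarely the highest under any of the 3 scalings, with 3, 3 and 1 of the 82 members against 21.6%, 23% and 21.4% of all tested genes. The median member lay -0.09, -0.10 and -0.12 from its own mean in KO replicate 3 on the log2 scale under these scalings.

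Summed over a complex as deposited, KO replicate 1 had 1.20 times the WT mean for complex I, 1.22 times for complex III, 1.24 times for complex IV and 1.17 times for complex V, but 0.95 times for complex II. The same ratios for KO replicate 3 were 0.98, 0.96, 0.97, 0.95 and, for complex II, 0.92. Without KO replicate 1 the median log2 fold change of the members was -0.05 (33 of 82 higher), and without KO replicate 3 it was 0.21 (70 of 82 higher). Over all tested genes the median was 0.08 (58.9% higher) without KO replicate 1 and 0.22 (70.6% higher) without KO replicate 3.

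**Figure D2:**
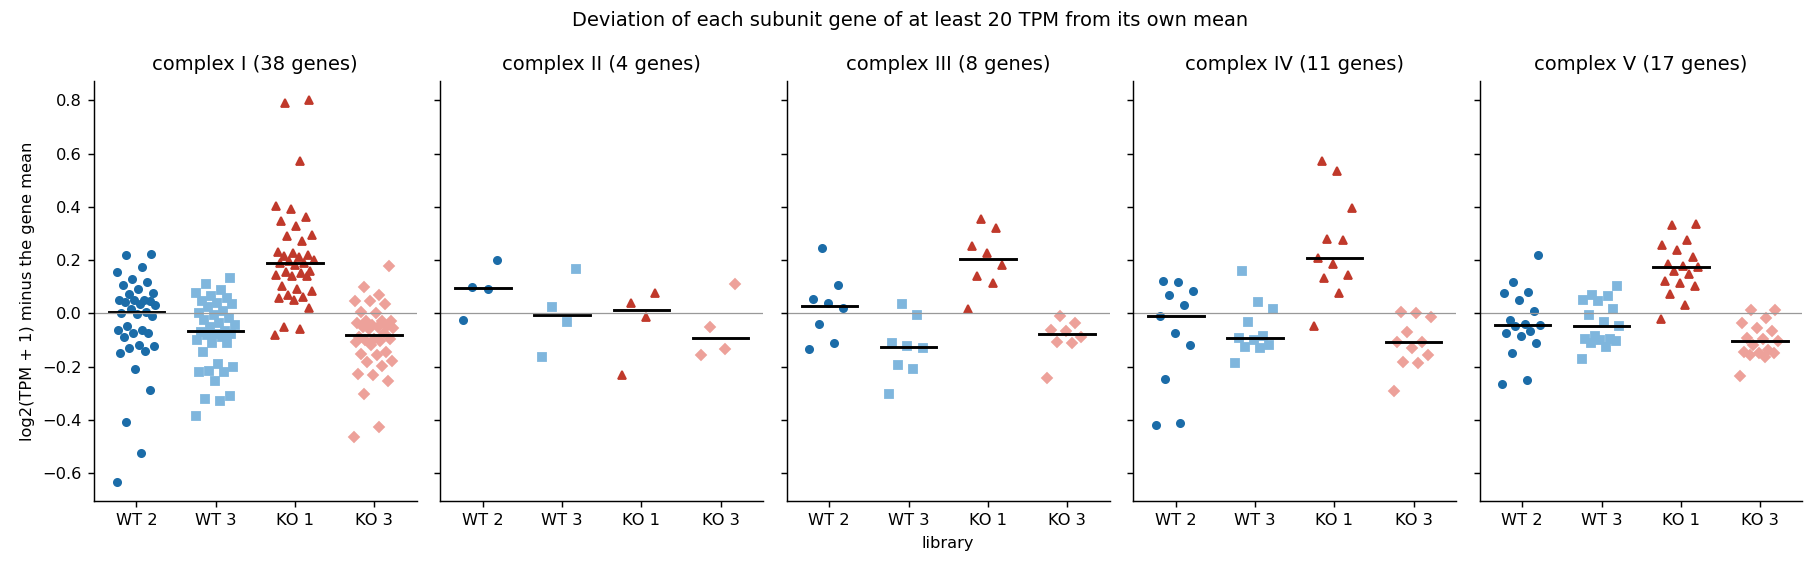
Deviation of each subunit gene with a mean of at least 20 TPM from its own mean over the 4 libraries (log2(TPM + 1), as deposited), with 1 point per gene, 1 panel per complex and a bar at the median. KO replicate 1 lies above the other libraries in complexes I, III, IV and V and not in complex II, which does not hold after centring the libraries on their median gene (highest for 18 of the 82 members), and KO replicate 3 lies near or below the WT libraries.

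Markers of other cell types also differed between the libraries. The summed level of 6 stellate cell markers was 54.6 and 45.5 TPM in WT against 84.1 and 63.4 TPM in KO, and that of 5 cholangiocyte markers was 14.6 and 15.9 TPM in WT against 37.9 and 24.5 TPM in KO. Both lists were highest in KO replicate 1, and most of the cholangiocyte sum was *Spp1* (13.2 and 12.7 TPM in WT, 33.4 and 20.7 TPM in KO), while *Krt7* was at 0 in KO replicate 3. Most of the stellate cell sum was *Dcn* (42.6 and 34.1 TPM in WT, 62.8 and 48.4 TPM in KO). Of the 5 stellate cell markers that reached 1 TPM, 2 were higher in KO with no overlap (34.4% of all tested genes), while *Des* and *Lrat* overlapped. The sum of 6 Kupffer cell markers was 94.95 and 107 TPM in WT against 53.6 and 140 TPM in KO, lowest in KO replicate 1, and that of 4 neutrophil markers was 2.68 and 43.1 TPM in WT against 4.16 and 2.27 TPM in KO, highest in WT replicate 3. The part of these lists in the differences of the subunit genes was not tested. In whole liver, fewer cells of a type and less RNA per cell cannot be told apart.

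Within each library the complexes other than complex II kept close proportions. The summed TPM of complex I was 2.64 and 2.66 times that of complex III in WT and 2.61 and 2.71 times in KO. The ratio of complex IV to complex V was 0.671 and 0.651 in WT and 0.701 and 0.673 in KO. The ratio of complex I to complex II was 9.63 and 9.88 in WT and 12.3 and 10.4 in KO, higher in each KO library than in either WT library. The ratio of complex II to complex III was 0.274 and 0.269 in WT and 0.212 and 0.261 in KO, and that to complex IV was 0.165 and 0.159 in WT and 0.124 and 0.155 in KO, both also with no overlap. Against complex V the genotypes overlapped, at 0.111 and 0.104 in WT and 0.0871 and 0.104 in KO, and in each of these ratios KO replicate 1 was farther from WT than KO replicate 3. These ratios do not depend on the scaling of a library. The sums of complex II include *Sdhc*, which had 173 and 169 TPM in WT against 128 and 137 TPM in KO. Its log2 fold change (-0.36) was the lowest of the 4 genes of complex II. Of the other genes, *Sdhb* and *Sdhd* overlapped between the genotypes and *Sdha* was higher in KO. The ratios were not taken without *Sdhc*, so their lack of overlap is not shown for complex II as a whole.

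Complex I, the NADH dehydrogenase, has a catalytic core and a shell of accessory subunits. The 7 nuclear core genes carry the flavin and iron-sulfur clusters or line the quinone site, and 5 had a higher and 2 a lower mean in KO, 0 were called, and the median log2 fold change was 0.09. *Ndufv1*, which binds NADH, had 130 and 124 TPM in WT against 121 and 131 TPM in KO. *Ndufv2* had 104 and 124 TPM in WT against 134 and 99.8 TPM in KO. The genotypes overlapped for both genes.

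*Ndufs1*, the largest core subunit, was the lowest core gene, with 34.9 and 40.0 TPM in WT against 58.3 and 27.9 TPM in KO, so that the KO libraries lay on both sides of WT (0.11 on the log2 scale, SE 0.35). *Ndufs7*, which holds the last iron-sulfur cluster before the quinone, had 94.5 and 93.6 TPM in WT against 133 and 97.4 TPM in KO (0.28 on the log2 scale, SE 0.20, adjusted p = 0.625 with limma). *Ndufs3* had 118 and 117 TPM in WT against 141 and 119 TPM in KO. For *Ndufs7* and *Ndufs3* the KO libraries were both above WT, KO replicate 3 by little. *Ndufs8* had 118 and 109 TPM in WT against 114 and 98.5 TPM in KO, with overlap.

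The most abundant gene of the complex I names was *Ndufa4*, whose product is also found with complex IV. It had 518 and 573 TPM in WT against 763 and 570 TPM in KO, a difference carried by KO replicate 1, and leaving this gene out gave a complex I median of 0.09. *Ndufa1*, which encodes a small subunit needed for assembly, had 395 and 406 TPM in WT against 459 and 408 TPM in KO. The highest log2 fold change of the complex was that of *Ndufa5*, an accessory subunit of the peripheral arm, with 80.2 and 127 TPM in WT against 217 and 110 TPM in KO (0.61, SE 0.38, adjusted p = 0.57 with limma). The genotypes overlapped, and omitting KO replicate 1 left *Ndufa5* at 0.12.

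Some accessory genes differed with no overlap between the genotypes, and these were named after their values were seen. Of the 40 genes of complex I, 9 (22.5%) were higher and 3 (7.5%) lower in KO with no overlap as deposited, compared with 34.4% and 10.9% of all tested genes. *Ndufs4*, an accessory subunit of the peripheral arm, had 85.0 and 130 TPM in WT against 149 and 139 TPM in KO (0.45 on the log2 scale, SE 0.24, adjusted p = 0.521 with limma), and its value fell to 0.15 when WT replicate 2 was omitted and rose to 0.75 when WT replicate 3 was omitted. *Ndufs5* had 148 and 135 TPM in WT against 213 and 158 TPM in KO, and *Ndufa12* had 201 and 162 TPM in WT against 238 and 217 TPM in KO. None of the 3 passed the test. In the other direction, *Ndufa7* had 180 and 164 TPM in WT against 146 and 132 TPM in KO (-0.31 on the log2 scale, SE 0.16, adjusted p = 0.522 with limma), and its value stayed between -0.38 and -0.23 when any single library was omitted. *Ndufa8* had 132 and 134 TPM in WT against 124 and 123 TPM in KO (-0.11 on the log2 scale, SE 0.15). The KO libraries both lay under the WT libraries for *Ndufa7* and *Ndufa8*.

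*Ndufa4l2*, a paralogue of *Ndufa4* known as a hypoxia-induced gene, was the least abundant member. It had 1.28 and 1.95 TPM in WT against 0.685 and 1.18 TPM in KO (-0.44 on the log2 scale, SE 0.30), and its mean of 1.27 TPM lay just inside the minimum of 1 TPM, beside *Ndufs6b* at 1.28 TPM. *Ndufs6b* was listed at 0 and 3.00 TPM in WT against at 0.897 and 1.21 TPM in KO. The nearest gene outside the minimum was *Cox6b2*, a testis isoform, with a mean of 0.284 TPM.

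The level of *Ndufb4*, a subunit of the membrane arm, has to be read together with a near copy. *Ndufb4* lies on chromosome 16 (37647170 to 37654453, GRCm38), and the processed pseudogene *Ndufb4c* is a single stretch on chromosome 15 (73809507 to 73809896). Over the coding sequence without the stop codon, 387 of 387 bases were the same in both, and 100% of its stretches of 31 bases also occurred in transcripts of *Ndufb4*. The first 60 coding bases, taken from the GENCODE M21 transcripts, are shown because a read that lies within them matches both genes:
Ndufb4 and Ndufb4c: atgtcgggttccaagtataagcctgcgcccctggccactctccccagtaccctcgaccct

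Salmon gave 258 and 225 TPM in WT against 292 and 258 TPM in KO to *Ndufb4c*, and 19.2 and 24.2 TPM in WT against 45.8 and 20.8 TPM in KO to *Ndufb4*. The pseudogene thus had between 6.37 and 13.4 times the level of the coding gene, and how the reads were divided between them is uncertain. The sum of both was 277 and 249 TPM in WT against 337 and 279 TPM in KO, and as a single gene it had a log2 fold change of 0.22 (SE 0.18, adjusted p = 0.657 with limma). The transcripts differ in length (971 bases for *Ndufb4* and 390 for *Ndufb4c*) and TPM is corrected for length. This sum therefore also depends on how the reads were divided.

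Complex II, the succinate dehydrogenase, is encoded by 4 nuclear genes alone, and it also works in the citrate cycle. *Sdhc* encodes a membrane anchor with the quinone site, and it had 173 and 169 TPM in WT against 128 and 137 TPM in KO. The KO libraries both lay under the WT libraries, and the spread within a genotype was small (171 ± 2.87 TPM in WT and 132 ± 6.51 TPM in KO, mean ± SD, n = 2 each). The log2 fold change was -0.36 (SE 0.16), the 95% interval ran from -0.75 to 0.03, and the gene did not pass the test (unadjusted p = 0.062 and adjusted p = 0.479 with limma). It stayed negative under every alternative, from -0.31 without KO replicate 1 to -0.57 with each library centred on its median gene in the TPM values.

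*Sdha*, the flavoprotein that oxidizes succinate, moved the other way, with 138 and 125 TPM in WT against 148 and 152 TPM in KO (0.19 on the log2 scale, SE 0.16, adjusted p = 0.664 with limma). The KO libraries both exceeded the WT libraries, but the value was -0.01 when each library was centred on its median gene. *Sdhb*, the iron-sulfur subunit, had 232 and 221 TPM in WT against 223 and 195 TPM in KO, and *Sdhd*, the other membrane anchor, had 185 and 169 TPM in WT against 171 and 167 TPM in KO. The genotypes overlapped for both, so that within this complex *Sdhc* was lower and *Sdha* higher with no overlap, and neither was called.

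**Figure D3:**
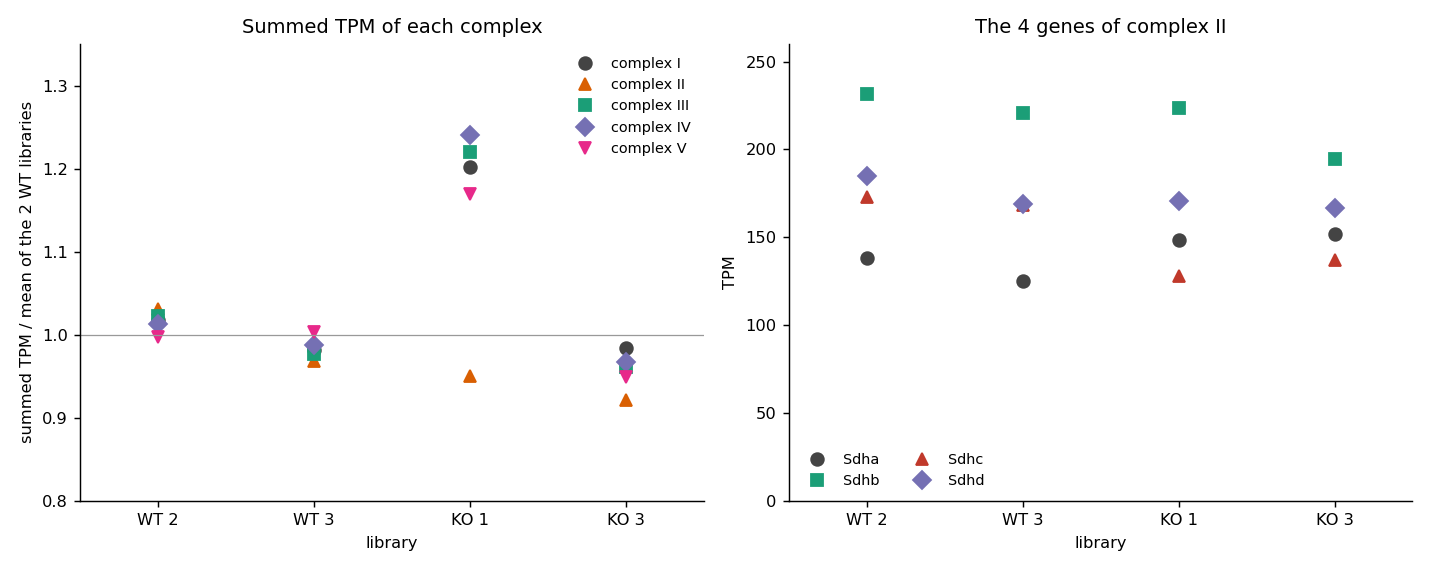
Left, summed TPM of each complex as deposited in each library divided by the mean of the WT libraries, on an axis that starts at 0.8. KO replicate 1 lies between 1.17 and 1.24 for complexes I, III, IV and V and at 0.95 for complex II. Right, TPM of the 4 genes of complex II in each library, where *Sdhc* is at 128 and 137 TPM in KO and at 173 and 169 TPM in WT.

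*Sdhc* lies on the reverse strand of chromosome 1 (171127165 to 171150603), and the targeted gene *Usp21* lies on the same chromosome (171281945 to 171287991), 131 kb away. Among 22 other tested genes that start within 500 kb of the start of *Usp21*, the KO libraries were below WT with no overlap for 5, *Sdhc* included (10.9% of all tested genes), and above for 3 (34.4% of all tested genes). Whether the DNA around *Usp21* also differs between the genotypes was not tested, and effects of the deletion and of any linked DNA cannot be told apart here.

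**Figure D4:**
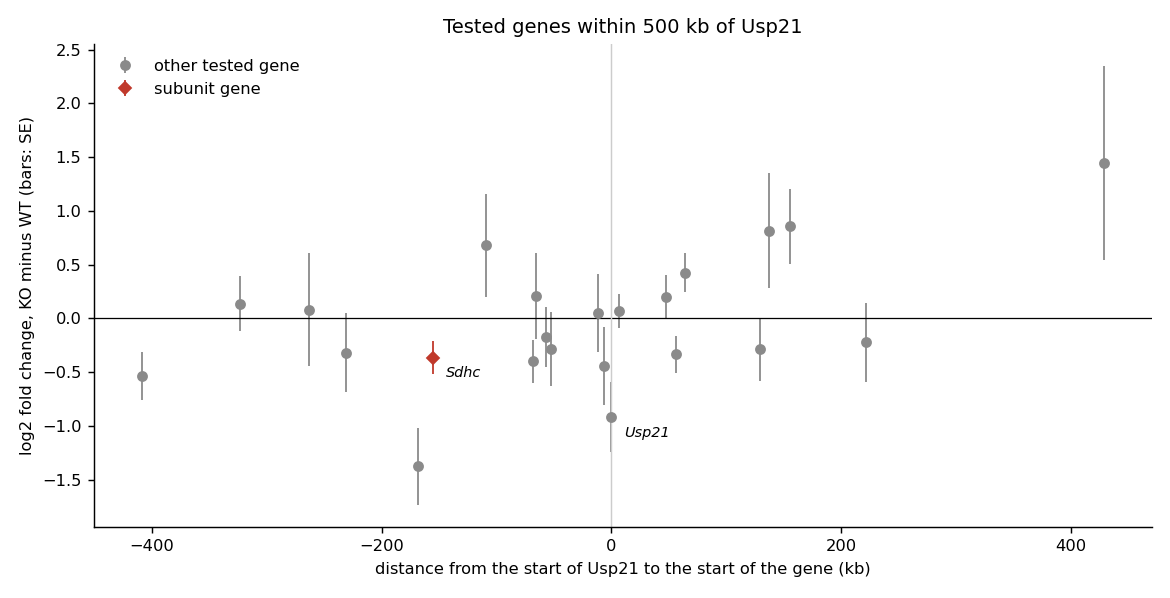
Log2 fold change (KO minus WT, bars are the SE) of *Usp21* and 22 other tested genes that start within 500 kb of its start, against the distance between the starts in kb. The subunit gene *Sdhc* (-0.36) is marked as a diamond.

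The second deposited table, with reads counted per gene on alignments, gave a different picture of these genes. It listed 58 of the 82 members at 0 in all 4 libraries, although most had over 100 TPM, and the other 24 had at most 10 reads in a library. *Sdhc* had 5 and 10 reads in WT and 0 and 0 in KO. With the limit of 3 reads over the group that a count of 0 allows, and the 15 WT reads taken as exact, KO was 4.80-fold lower. This value allows for counting error in KO only, and not for that in WT or for differences between mice, so it is not a lower bound. On these reads edgeR gave *Sdhc* an adjusted p of 0.0353, DESeq2 an adjusted p of 0.999, and limma on the scaled values an adjusted p of 0.635. The direction was that of the TPM values, where KO had 0.776 times the WT mean, and the reason for the difference in size was not tested.

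Complex III, the cytochrome bc1 complex, showed close values between the genotypes. *Uqcrc1* and *Uqcrc2* encode the core proteins, which had 174 and 128 TPM in WT against 148 and 140 TPM in KO for *Uqcrc1*, and 157 and 126 TPM in WT against 157 and 144 TPM in KO for *Uqcrc2*. *Uqcrfs1*, the Rieske iron-sulfur protein, had 181 and 160 TPM in WT against 198 and 161 TPM in KO. The genotypes overlapped for all 3 core genes, and their log2 fold changes ran from -0.05 to 0.10.

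The small subunits of complex III were more abundant. *Uqcrq* had 553 and 582 TPM in WT against 678 and 480 TPM in KO, with the KO libraries on both sides of WT. *Uqcrb*, which lies near the quinone site, had 475 and 476 TPM in WT against 668 and 491 TPM in KO, with no overlap (0.27 on the log2 scale, SE 0.21, adjusted p = 0.641 with limma), and *Uqcr10* had 203 and 162 TPM in WT against 250 and 195 TPM in KO. *Uqcrb* was the 1 gene of the 8 whose genotypes did not overlap as deposited, compared with 34.4% of all tested genes higher and 10.9% lower with no overlap, and omitting KO replicate 1 left it at 0.05.

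In complex IV, the cytochrome c oxidase, the liver isoforms dominated. Of 12 genes of isoform pairs, 7 reached 1 TPM, with a median log2 fold change of 0.10 and 0 called. *Cox6a1*, the liver form of a regulatory subunit, had 733 and 637 TPM in WT against 713 and 627 TPM in KO, while its muscle form *Cox6a2* was listed at 0 and 0 in WT and at 0.368 and 0.456 TPM in KO. *Cox4i1*, the common form of the largest nuclear subunit, had 603 and 531 TPM in WT against 630 and 520 TPM in KO, and its lung form *Cox4i2* was above 0 in 1 library, at 0.260 TPM. *Cox8a* had 597 and 563 TPM in WT against 695 and 557 TPM in KO, and *Cox8b* was above 0 in 1 library, at 0.895 TPM. The genotypes overlapped for *Cox6a1*, *Cox4i1* and *Cox8a*.

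*Cox6b1* had 378 and 320 TPM in WT against 395 and 306 TPM in KO. *Cox7b2*, a testis form, was listed at 0 in all 4 libraries, and *Cox7b* had 146 and 201 TPM in WT against 284 and 175 TPM in KO. *Cox7a2l*, which takes part in the supercomplex of complexes III and IV, had 103 and 125 TPM in WT against 108 and 112 TPM in KO. *Cox6c* had 420 and 566 TPM in WT against 738 and 561 TPM in KO (0.40 on the log2 scale, SE 0.24, adjusted p = 0.555 with limma). For *Cox6b1*, *Cox7b*, *Cox7a2l* and *Cox6c* the genotypes overlapped, and in *Cox6c* and *Cox7b* the WT libraries themselves were far apart.

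*Cox7a1*, known as the heart and skeletal muscle form of its subunit, was the member with the lowest p. It had 3.00 and 2.69 TPM in WT against 4.41 and 5.50 TPM in KO, and the KO libraries both exceeded WT. The log2 fold change was 0.63 (SE 0.24, unadjusted p = 0.045 and adjusted p = 0.472 with limma) and ran from 0.49 to 0.76 when any single library was omitted. Its liver partner *Cox7a2* had 289 and 335 TPM in WT against 510 and 279 TPM in KO, with overlap, so that *Cox7a2* was between 50.8 and 125 times as abundant as *Cox7a1*. The muscle markers *Acta1*, *Ckm*, *Myh4*, *Myh7*, *Tnnt3* and *Mb* were at 0 in all libraries.

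Complex V was described by its parts. The F1 head, where ATP is made, has 5 genes, of which 4 had a higher and 1 a lower mean in KO, 0 were called, and the median log2 fold change was 0.02. *Atp5f1b*, the catalytic beta subunit, had 717 and 697 TPM in WT against 948 and 675 TPM in KO, and *Atp5f1a*, the alpha subunit, had 355 and 314 TPM in WT against 380 and 303 TPM in KO. *Atp5f1c*, the gamma shaft, had 311 and 275 TPM in WT against 370 and 290 TPM in KO. The genotypes overlapped for these 3 genes.

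*Atp5f1e* had 332 and 280 TPM in WT against 322 and 292 TPM in KO, and *Atp5f1d* had 336 and 269 TPM in WT against 284 and 268 TPM in KO. Of the stalk genes, *Atp5pf* had 301 and 350 TPM in WT against 452 and 345 TPM in KO (0.28 on the log2 scale, SE 0.21, adjusted p = 0.621 with limma). *Atp5me* had 483 and 455 TPM in WT against 511 and 388 TPM in KO. All 4 overlapped between the genotypes. *Atp5if1*, which encodes the inhibitor of the enzyme and was named after its values were seen, had 27.6 and 33.1 TPM in WT against 31.5 and 31 TPM in KO.

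Subunit c, which forms the ring that turns in the membrane, is encoded by 3 genes whose mature proteins are the same. Over the last 75 codons, 75 of 75 amino acids were identical between the 3 genes, whereas 191 of 225 bases were identical between *Atp5mc1* and *Atp5mc2*, 180 between *Atp5mc1* and *Atp5mc3*, and 177 between *Atp5mc2* and *Atp5mc3*. The first 90 of these bases, from the GENCODE M21 transcripts, are shown since their differences are what lets reads be told apart, with capitals where the 3 genes differ:
Atp5mc1: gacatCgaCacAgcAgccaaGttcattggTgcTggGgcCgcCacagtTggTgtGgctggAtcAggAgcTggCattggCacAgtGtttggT
Atp5mc2: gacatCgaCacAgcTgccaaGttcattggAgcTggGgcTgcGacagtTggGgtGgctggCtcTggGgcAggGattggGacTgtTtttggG
Atp5mc3: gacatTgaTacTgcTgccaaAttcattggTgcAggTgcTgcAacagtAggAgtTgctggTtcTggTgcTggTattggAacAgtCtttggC

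*Atp5mc3* gave 72.5% and 72.5% of the summed TPM of the 3 genes in WT and 72.0% and 73.3% in KO, and *Atp5mc1* gave 27.5% and 27.0% in WT and 27.4% and 26.2% in KO. *Atp5mc3* had 940 and 1023 TPM in WT against 1075 and 927 TPM in KO, with overlap. *Atp5mc1* had 356 and 381 TPM in WT against 409 and 332 TPM in KO, also with overlap. The shares of these 2 genes differed by under 2 percentage points between the 4 libraries.

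*Atp5mc2* had the largest fitted change of the members and the least certain one. It had 0.633 and 6.14 TPM in WT against 9.98 and 6.18 TPM in KO (1.38 on the log2 scale, SE 0.70, adjusted p = 0.516 with limma). The WT libraries were farther apart than the genotypes, and the log2 fold change was 0.31 without WT replicate 2. Of its stretches of 31 bases, 40.2% also occurred in transcripts of other genes, so its level is uncertain. Over all members, 14 shared at least 20% of these stretches with other genes and 1 (*Ndufb4c*) at least 50%.

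The promoters of the members were searched for motifs of factors known for nuclear genes of mitochondrial proteins. RefSeq promoters of GRCm38.p6, from 250 bases before to 50 bases after the start of a gene, were given for 66 of the 82 members and 27025 genes, and both strands were searched, with matches of different motifs allowed to share bases. The letters of the NRF1 motif (GCGC, any 2 bases, GCGC) were found for 30.3% of the members, 16.0% of the tested genes and 7% of all genes. Those of an ETS motif that GABP binds, CCGGAAG, were found for 24.2%, 22.0% and 9.93%, and those of YY1, AAGATGGC, for 15.2%, 5.95% and 3.19%. The SP1 letters GGGCGG were found for 40.9% of the members, 68.9% of the tested genes and 38.2% of all genes, and TATAAA for 7.58%, 9% and 15.7%.

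For 3 members, chosen after their values were seen, the 120 bases before the RefSeq start are shown with NRF1 and ETS letters in capitals. *Cox6a1*, the most abundant gene of complex IV, holds both (chr5:115348959-115349078, reverse strand), *Uqcrh* of complex III holds an ETS match (chr4:116075071-116075190, reverse strand), and *Cox7a1*, the gene with the lowest p, holds neither (chr7:30184051-30184170, forward strand):
Cox6a1: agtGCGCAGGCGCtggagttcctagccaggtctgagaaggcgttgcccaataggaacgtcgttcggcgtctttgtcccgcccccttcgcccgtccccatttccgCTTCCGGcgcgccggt
Uqcrh: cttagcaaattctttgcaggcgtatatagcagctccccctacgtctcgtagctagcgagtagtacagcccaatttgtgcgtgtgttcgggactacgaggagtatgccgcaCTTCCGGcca
Cox7a1: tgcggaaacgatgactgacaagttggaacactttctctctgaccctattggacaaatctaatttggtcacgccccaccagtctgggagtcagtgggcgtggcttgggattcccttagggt

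The ETS letters appear here as CTTCCGG, the reverse complement. These matches describe the windows and were not tested against binding. *Cox7a1* was not alone in holding neither, as the same 120 bases of *Ndufa4*, *Sdhb*, *Atp5mc3* and *Cox7a2* also held neither motif. Over all the bases searched, *Sdhb* held an ETS match and *Atp5mc3* an NRF1 match, while *Ndufa4* and *Cox7a2* held neither.

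Genes that work with the complexes but lie outside the rule were described from lists. Of the 5 electron carriers, 3 were higher and 2 lower in KO, and 0 were called. *Etfdh*, which passes electrons from fatty acid oxidation to ubiquinone, had 64.3 and 51.5 TPM in WT against 87.7 and 85.1 TPM in KO, with no overlap (0.58 on the log2 scale, SE 0.18, unadjusted p = 0.021 and adjusted p = 0.464 with limma). *Etfa*, a subunit of the flavoprotein that feeds it, had 263 and 234 TPM in WT against 409 and 293 TPM in KO, and its partner *Etfb* had 407 and 394 TPM in WT against 379 and 346 TPM in KO. The subunits of this carrier thus had non-overlapping genotypes in opposite directions. Of the 5 carriers, 2 were higher and 1 lower in KO with no overlap, compared with 34.4% and 10.9% of all tested genes. *Cyc1*, the cytochrome c1 of complex III, had 220 and 166 TPM in WT against 179 and 179 TPM in KO.

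Assembly factors insert cofactors and join subunits. Of 46 tested, 28 were higher and 18 lower in KO, 0 were called, and their median log2 fold change was 0.10. *Lyrm7*, needed to insert the Rieske protein, had 0.202 and 0.892 TPM in WT against 1.6 and 2.90 TPM in KO (1.08 on the log2 scale, SE 0.37, adjusted p = 0.464 with limma). *Sco1*, a copper chaperone of complex IV, had 2.44 and 2.72 TPM in WT against 4.10 and 4.99 TPM in KO. *Cox10*, which makes a haem precursor for complex IV, had 5.49 and 3.85 TPM in WT against 2.41 and 2.41 TPM in KO (-0.72 on the log2 scale, SE 0.26, adjusted p = 0.464 with limma). The genotypes did not overlap for these 3 genes, and they did overlap for *Ndufaf8*, a complex I factor, with 25.3 and 31.2 TPM in WT against 26.2 and 12.1 TPM in KO. Of the 46 factors, 15 (32.6%) were higher and 6 (13%) lower in KO with no overlap. These shares were near the 34.4% and 10.9% of all tested genes.

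Of the 13 subunits encoded in mitochondrial DNA, 10 were higher and 3 lower in KO and 0 were called. They held 16.3% and 11.6% of all TPM in WT and 16.5% and 15.5% in KO, so that WT replicate 3 was the low library. *mt-Co2* had 6170 and 16290 TPM in WT against 15143 and 14804 TPM in KO, and *mt-Atp8* had 38035 and 21592 TPM in WT against 38693 and 37312 TPM in KO. *mt-Nd4l* had 5553 and 1067 TPM in WT against 6926 and 515 TPM in KO, and *mt-Nd1* had 12234 and 8544 TPM in WT against 10494 and 9375 TPM in KO. The genotypes overlapped for these 4 genes, and the median SE of the list was 0.31, compared with 0.19 for the nuclear members.

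Of 13 citrate cycle genes, 9 were higher and 4 lower in KO, 0 were called, and their median log2 fold change was 0.24. *Fh1*, the fumarase, had 106 and 128 TPM in WT against 255 and 149 TPM in KO (0.74 on the log2 scale, SE 0.29, unadjusted p = 0.046 and adjusted p = 0.472 with limma), and *Sucla2* had 50.2 and 58.2 TPM in WT against 76.4 and 65.5 TPM in KO. The genotypes did not overlap for either gene, while *Ogdh* had 33.8 and 26.4 TPM in WT against 37.3 and 18.7 TPM in KO. Of the 13 genes, 5 (38.5%) were higher and 1 (7.69%) lower in KO with no overlap, compared with 34.4% and 10.9% of all tested genes. Without KO replicate 1 the median of the citrate cycle genes was 0.04.

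Of 9 tested carriers and channels of the mitochondrial membranes, 6 were higher and 3 lower in KO, with 0 called and a median of 0.04. *Vdac2*, a channel of the outer membrane, had 49.1 and 38.5 TPM in WT against 59.1 and 51.5 TPM in KO, with no overlap. Of the 9 genes, 1 was higher and 1 lower in KO with no overlap, compared with 34.4% and 10.9% of all tested genes. *Slc25a5*, an ADP and ATP exchanger, had 336 and 331 TPM in WT against 344 and 295 TPM in KO, *Tomm20* had 42.2 and 42.5 TPM in WT against 42.1 and 52.2 TPM in KO, and *Phb2* had 128 and 138 TPM in WT against 126 and 118 TPM in KO.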

How the data were processed

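Liver RNA was extracted with ISOGEN II and sequenced on an Illumina MiSeq. Salmon, run by the authors on mm10 transcripts, gave the deposited TPM per Ensembl gene. TPM keeps no record of depth. The authors also counted reads with HTSeq on mm10 alignments and deposited them scaled by TMM, which was read as a count-based signal. This signal fell on whole multiples of 1 read for 100% of values above 0 (tolerance 0.02 reads), which gave 148164 and 110427 reads in WT and 145306 and 102898 in KO. The deposited log tables repeat these values and were not used. Tool versions and the annotation release are not given in the sources used here.

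Samples were grouped by their labels, leaving 0 per-sample columns without a use. Genes that averaged 1 TPM or more were tested on log2(TPM + 1) with limma 3.58.1 (eBayes with a trend, prior degrees of freedom 3.62, R 4.3.3), and fold changes on this scale understate low genes. Intervals used 5.62 degrees of freedom. Recovered reads were tested with edgeR 4.0.16 (quasi-likelihood) and DESeq2 1.42.0. The scripts were tested on simulated data, where limma on TPM recovered large changes but not changes of 2-fold. Coordinates, lengths, GC content and shared stretches of 31 bases came from GENCODE M21 (GRCm38), which holds 35170 of the gene identifiers. No batch or date was given.

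The members and lists were chosen with earlier results of these data known. Genes named are, per complex, the 2 most abundant, the 2 highest and 2 lowest log2 fold changes, all of complex II, the core, F1, subunit c and isoform lists, members changed at least 2-fold, those beside the minimum, and the 2 highest and 2 lowest of each list. Of these, 1 member and 1 list gene are not reported here by name, but they stay in all counts and medians except those of the genes near *Usp21*.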

Additional observations from a re-analysis of the deposited data

How the results depend on the processing

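Limma on TPM called 0 members and 0 list genes in each TPM alternative and with any library left out, and edgeR on the recovered reads called 1 of 24 members (*Sdhc*, the cause was not tested), which is also the 1 call in the lists. Centring each library on its median gene gave medians of -0.12 over the members and, for complexes I to V, -0.11, -0.29, -0.12, -0.11 and -0.14. Upper quartile scaling gave -0.22 in complex II. Removing the trend with GC content gave -0.055 over the members, -0.049 in complex I and -0.21 in complex II. With 38 members higher and 44 lower after removing the trend with transcript length, and 29 and 53 for GC content, the split also turned there. Rescaling without the mitochondrially encoded genes gave 68 higher and 14 lower.

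The second table rests on 24 members with few reads. The scaled values, edgeR and DESeq2 gave medians of -0.30, -0.35 and -0.30 over the members, -1.14, -1.55 and -1.09 in complex I, -1.67, -2.37 and -1.48 in complex II, 2.50, 2.29 and 1.97 in complex III, 0.74, 1.09 and 0.69 in complex IV, and -0.25, -0.35 and -0.30 in complex V. The cause of these differences from TPM was not tested. With 1 library left out, assuming that the lone library of a genotype varies like the others, the median ran from -0.05 to 0.21 over the members, from -0.017 to 0.25 in complex I, -0.15 to -0.03 in complex II, -0.04 to 0.24 in complex III, -0.047 to 0.29 in complex IV and -0.07 to 0.19 in complex V. The lowest value of the members came without KO replicate 1. Over all tested genes the median ran from 0.08 to 0.22 when a library was left out. Summing *Ndufb4* and *Ndufb4c*, or leaving out the 2 processed pseudogenes, was chosen after seeing the data and changed 0 calls.

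No paired analysis was possible because no pairing or litter was given for the 4 mice. Depth is unknown for TPM, and 2 libraries per genotype limit the precision.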

Other observations

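Across genes, which are not independent replicates and share the libraries, the log2 fold change went with the GC content of the transcripts. Spearman's rho between the log2 fold change and GC content was -0.29 over the 82 members and -0.27 over 9547 tested genes. With transcript length it was -0.13 over the members and 0.24 over the tested genes, and the members are short, with a median of 850 bases compared with 2739. Between KO replicates 1 and 3, the difference in log2(TPM + 1) had a rho with GC content of -0.20 over the members and -0.01 over the tested genes.

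*Ndufc1*, a small subunit of the membrane arm chosen after its values were seen, had 198 and 197 TPM in WT against 240 and 142 TPM in KO, so that the KO libraries lay on both sides of closely matching WT libraries.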
